A study of Homo sapiens with 9 samples.

Results

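The machinery that carries newly made proteins from the endoplasmic reticulum (ER) to the Golgi apparatus was followed through 58 genes, chosen by gene name for their roles. All 58 genes were found among the 58735 genes of the count table, and all 58 were among the 16812 genes with enough counts to be tested. They comprised 14 genes of the ER translocon, signal peptidase and the translocon-associated protein (TRAP) complex, 11 of the COPII coat, 8 of the COPI coat, 12 cargo receptors, and 13 golgins, tethers and SNARE-related genes.

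Secretory and membrane proteins enter the ER through the Sec61 channel, where signal peptidase removes their signal sequence. COPII-coated vesicles then carry them towards the Golgi, and COPI-coated vesicles return escaped ER proteins and recycle receptors. Cargo receptors select what enters these vesicles, and golgins, long coiled-coil proteins anchored on Golgi membranes, capture vesicles as they arrive.

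RNA of FaDu cells, an established squamous carcinoma line of the human hypopharynx, was measured by bulk RNA sequencing in 3 groups of 3 libraries. NC_NC is the normal control, KD_NC is labelled as having AMIGO2 knocked down, and KD_OE is labelled as having CAPN2 overexpressed in addition to the AMIGO2 knockdown. No other allele or treatment is given for any group. The labels call the libraries of a group biological replicates, so p-values measure the spread between cultures of 1 cell line; how many clones each group stands for, and with which reagents it was made, is not given in the sources used here.

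The AMIGO2 label was not borne out by the counts: AMIGO2 measured 29.4, 26.1 and 27.1 CPM (read counts scaled to library size) in the control libraries, 24.4, 31.2 and 27.3 CPM in those labelled KD_NC, and 42.7, 35.2 and 38.7 CPM in those labelled KD_OE. AMIGO2 was higher in the libraries labelled KD_OE than in those labelled KD_NC (log2 fold change 0.49, adjusted p = 0.0014). CAPN2 was higher in the libraries labelled KD_OE than in those labelled KD_NC by 0.26 on the log2 scale (adjusted p = 0.012), but not past the threshold against control (0.11, adjusted p = 0.254). For this reason the groups are named by their labels, and directions of change are between labelled libraries. Libraries held 15158607 to 19737562 counts, and 3 counts corresponded to 0.152 to 0.198 CPM, a limit that covers counting error only. Squamous markers (KRT5, KRT14, KRT17, TP63, SFN and DSG3) were all detected, and their summed level was 7307 to 7794 CPM in control, 3488 to 4590 CPM in KD_NC and 3895 to 4475 CPM in KD_OE. KRT5 alone had means of 4430, 1205 and 1613 CPM in these groups. In KD_NC against control 5 of 6 were lower (83.3%, against 18.5% of all genes tested). From KD_NC to KD_OE they moved in both directions: KRT5, TP63 and DSG3 were higher, and KRT14 and SFN lower. DSG3 in KD_OE was also above control (1.55-fold, adjusted p = 2.01e-05), while KRT5, KRT14 and SFN were below it. Summed fibroblast markers lay between 8.17 and 15.5 CPM with LUM at 0, summed endothelial markers between 16.2 and 49.4 CPM with KDR at 0, and summed blood markers at or under 0.447 CPM with HBB at 0. COL1A1 made up nearly all of the fibroblast sum. CDH5 made up most of the endothelial sum, with means of 14.8, 43.1 and 13.6 CPM in control, KD_NC and KD_OE. In KD_NC against control CDH5 was 2.91-fold higher (adjusted p = 2.13e-08), while VWF was 2.32-fold lower (adjusted p = 0.000171). Of all counts, mitochondrial ribosomal RNA made up 0.557 ± 0.0233% in control, 0.954 ± 0.113% in KD_NC and 1.04 ± 0.019% in KD_OE (SD, n = 3). The part of these shifts in the results that follow was not tested.

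Levels are given as CPM scaled by trimmed mean of M values (TMM) factors, and a gene was said to rise or fall where edgeR's quasi-likelihood test gave an adjusted p under 0.05 over all 16812 genes. Log2 fold changes are given ± standard error (SE), and GC offsets are a correction of the same fit for the GC content and length of genes. In bulk RNA, fewer cells of a type and less RNA per cell cannot be told apart. The 58 genes together took 0.807 ± 0.00646% of all counts in the control libraries, 0.871 ± 0.0236% in those labelled KD_NC and 1.003 ± 0.0153% in those labelled KD_OE (SD, n = 3). The 3 ranges, 0.799 to 0.811%, 0.846 to 0.894% and 0.987 to 1.02%, did not overlap. On the TMM scale their summed level was 8308, 8341 and 8447 CPM in the control libraries, 8268, 8763 and 8941 CPM in those labelled KD_NC and 9851, 9775 and 9574 CPM in those labelled KD_OE, so that control and KD_NC overlapped and KD_OE lay above both.

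Against control, the libraries labelled KD_NC had 14 of the 58 genes higher (24.1%, against 16.0% of all genes tested) and 5 lower (8.62%, against 18.5%), with 39 that did not pass. The median log2 fold change was 0.09, beside -0.01 over all genes, and the values ran from -0.37 to 0.77. Without control replicate 2 the 14 became 8. The 5 became 9 without KD_NC replicate 3, 3 without control replicate 1 or control replicate 3, and 8 with offsets for GC content and length. Calls over all genes also moved, from 5812 with all libraries to 4288, 5791, 4823, 4568 and 6163 under these settings in turn. In the libraries labelled KD_OE against those labelled KD_NC, 18 genes rose (31.0%, against 23.7% of all genes) and 12 fell (20.7%, against 25.6%), with 28 that did not pass. The median was 0.01, as over all genes, but the extremes lay far apart, from -0.90 to 2.76. In the libraries labelled KD_OE against control, 23 rose (39.7%, against 27.9%), 12 fell (20.7%, against 28.4%) and 23 did not pass, with a median of 0.05 beside 0.02 over all genes. Under upper-quartile scaling, the share of called members that rose went from 60% to 72.4% for KD_OE against KD_NC and from 65.7% to 77.1% for KD_OE against control, and the median of all genes shifted by 0.10 in the latter. Among all called genes that share went from 48.1% to 54.3% and from 49.6% to 57.9%. The 3 contrasts share libraries, so their values are given side by side. The shares of all genes are not matched for expression level.

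**Figure D1:**
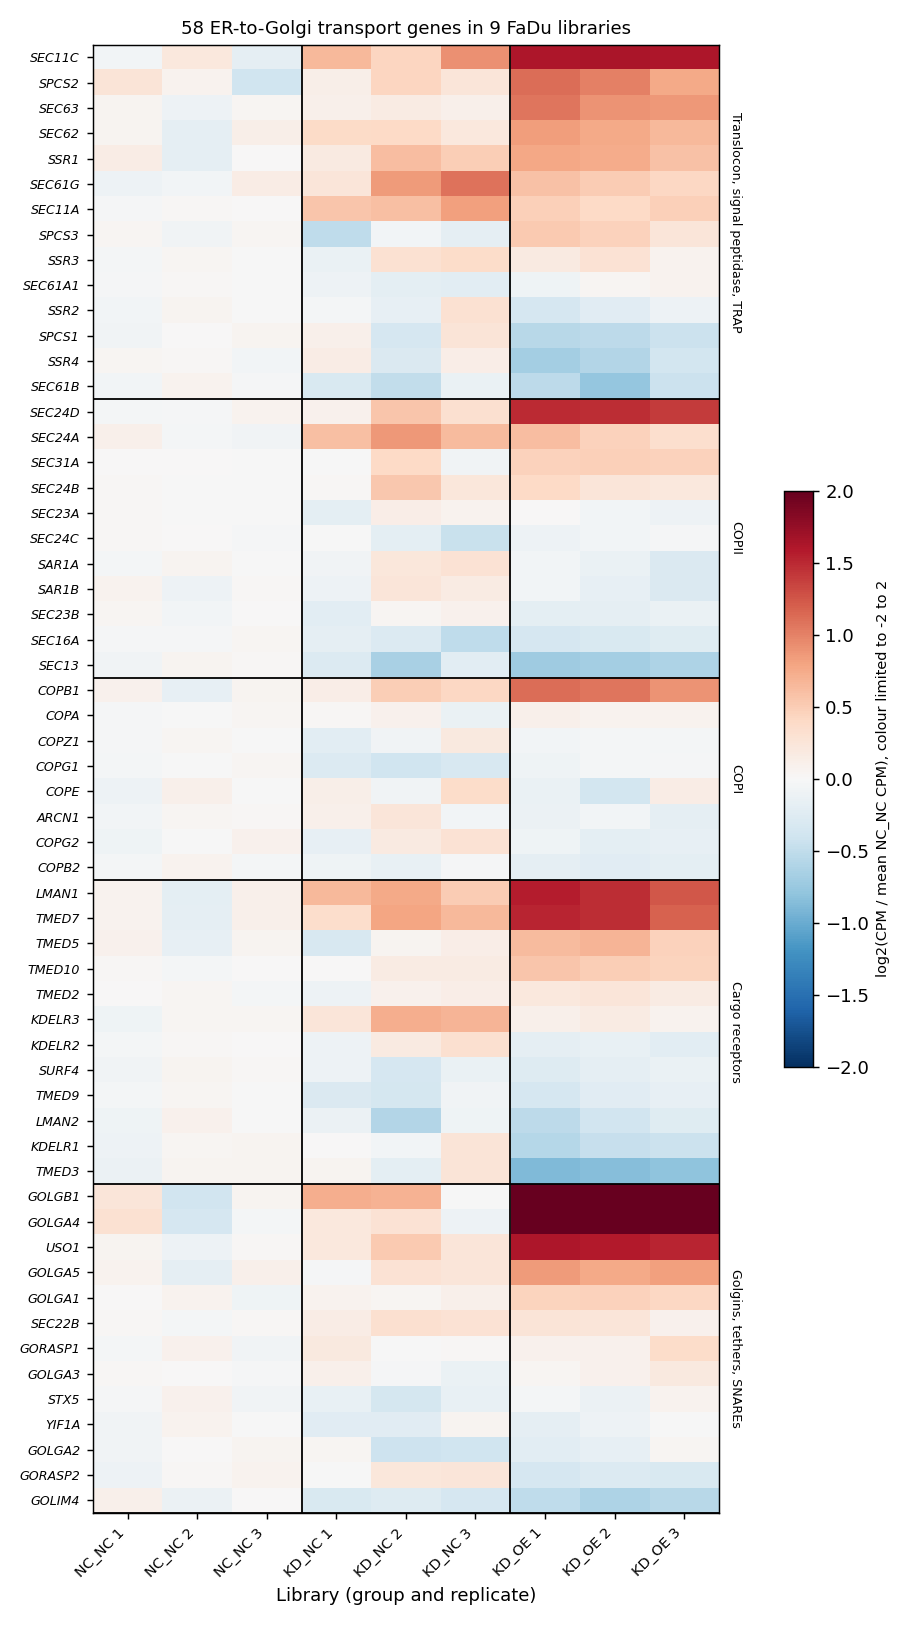
Levels of the 58 genes in each of the 9 libraries, as log2 of CPM over the gene's mean CPM in control, with colours limited to -2 and 2, with genes in rows grouped by class and libraries in columns grouped by label. GOLGA4 and GOLGB1 stand out with high values in the 3 libraries labelled KD_OE, while TMED3 and KDELR1 are low in them.

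The largest rises in both contrasts with KD_OE were among the golgins and tethers. In KD_NC against control the largest rise of the 58 genes was that of SEC61G (0.77), and the largest of this class was 0.51. GOLGA4 (golgin-245, a golgin of the trans-Golgi network) and GOLGB1 (giantin, a golgin of the Golgi rims) were several-fold higher in the libraries labelled KD_OE than in either other group, and USO1 (p115, a tether for vesicles arriving at the Golgi) followed them. GOLGA5 and GOLGA1, golgins of the Golgi rims and the trans-Golgi network, rose less. In the same libraries the stacking protein GORASP2 and the Golgi membrane protein GOLIM4 fell. Of the 13 genes of this class, 3 rose and 1 fell in KD_NC against control (23.1% and 7.69%, against 16.0% and 18.5% of all genes), and 5 rose and 2 fell in KD_OE against KD_NC (38.5% and 15.4%, against 23.7% and 25.6%), with the same counts in KD_OE against control. GOLGA2, GOLGA3 and GORASP1 did not pass in any contrast (GORASP1 passed with GC offsets in KD_NC and in KD_OE against control, at 0.24 and 0.29), so the called changes covered some golgins and not others. Counts of GOLGA2 may be shared with its pseudogenes GOLGA2P5 and GOLGA2P10.

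GOLGA4 (ENSG00000144674, chromosome 3, 37243177 to 37366751, plus strand, on GRCh38) measured 41.3, 26.7 and 32.7 CPM in the control libraries, 38.7, 41.1 and 31.1 CPM in those labelled KD_NC and 273, 245 and 236 CPM in those labelled KD_OE. All 3 libraries labelled KD_OE lay above the 6 others, which overlapped. The log2 fold change was 2.76 ± 0.135 (SE) against the libraries labelled KD_NC, a 6.79-fold rise (adjusted p = 1.37e-11), and 2.91 ± 0.137 against control (adjusted p = 6e-12). GOLGA4 in the libraries labelled KD_NC was 0.15 ± 0.134 against control on the log2 scale and did not pass (adjusted p = 0.43). GOLGB1 (ENSG00000173230, chromosome 3, 121663199 to 121749767, minus strand) measured 29.2, 19.0 and 25.7 CPM in the control libraries, 40.9, 39.9 and 24.5 CPM in those labelled KD_NC and 221, 202 and 197 CPM in those labelled KD_OE. Its 3 libraries labelled KD_OE likewise lay above the 6 others. The rise was 5.89-fold against KD_NC (log2 fold change 2.56 ± 0.178, adjusted p = 5.89e-08) and 8.42-fold against control (adjusted p = 6.85e-09). Its rise in the libraries labelled KD_NC against control, 0.51 ± 0.182 (adjusted p = 0.0414), came with overlapping groups, and the call was lost with GC offsets and without KD_NC replicate 1 or 2, control replicate 2 or 3, or KD_OE replicate 2 or 3. These rises of GOLGA4 and GOLGB1 against KD_NC stayed at 2.43 and 2.17 with GC offsets.

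USO1 (ENSG00000138768, chromosome 4, 75724593 to 75814286, plus strand) measured 40.3, 36.1 and 39.4 CPM in the control libraries, 44.6, 55.1 and 45.6 CPM in those labelled KD_NC and 118, 115 and 111 CPM in those labelled KD_OE. The 3 groups did not overlap and stood in the order control, KD_NC, KD_OE. Its log2 fold changes were 0.33 ± 0.101 (adjusted p = 0.0153) for KD_NC against control, 1.25 ± 0.0987 (adjusted p = 7.92e-09) for KD_OE against KD_NC and 1.58 ± 0.1 (adjusted p = 2.53e-10) for KD_OE against control, of which the first was lost with GC offsets (0.12) and without KD_NC replicate 2 or control replicate 2. GOLGA5, which had the highest level per kilobase of its class (65.0 CPM per kb over all libraries), measured 174, 146 and 177 CPM in the control libraries, 163, 203 and 196 CPM in those labelled KD_NC and 299, 280.1 and 291 CPM in those labelled KD_OE. Its libraries labelled KD_OE lay above all others, a 1.55-fold rise against KD_NC (adjusted p = 3.05e-05), whereas control and KD_NC overlapped. GOLGA1 rose 1.29-fold in the same comparison (adjusted p = 0.00206), though its exons overlap those of SCAI.

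GORASP2 (GRASP55, which links Golgi cisternae) measured 167, 183 and 188 CPM in the control libraries, 179, 209.8 and 213 CPM in those labelled KD_NC and 142, 148 and 145 CPM in those labelled KD_OE. Its KD_OE libraries were the lowest of all, 1.38-fold lower than those labelled KD_NC (adjusted p = 0.000229) and 1.24-fold lower than control (adjusted p = 0.00631), a call lost with upper-quartile scaling. GOLIM4, a membrane protein that cycles between the Golgi and endosomes, measured 107, 92.6 and 100.2 CPM in the control libraries, 80.6, 83.4 and 79.5 CPM in those labelled KD_NC and 70.5, 65.4 and 68.3 CPM in those labelled KD_OE. It stepped down over the groups without overlap, by 0.30 in KD_NC against control (adjusted p = 0.012) and by 0.25 in KD_OE against KD_NC on the log2 scale (adjusted p = 0.0223). The first of these calls was lost without control replicate 1, and the latter without KD_OE replicate 2 or with upper-quartile scaling. SEC22B, a SNARE of ER-to-Golgi vesicles, measured 68.0, 65.5 and 68.2 CPM in the control libraries, 74.5, 83.7 and 82.4 CPM in those labelled KD_NC and 80.3, 79.9 and 71.2 CPM in those labelled KD_OE. The libraries labelled KD_NC lay above control (0.26 ± 0.0902, adjusted p = 0.0342), but the value was -0.01 with GC offsets, and the call was also lost without KD_NC replicate 2 or 3, KD_OE replicate 2, or any 1 control library. Its partner STX5 and the membrane protein YIF1A did not pass in any contrast. With GC offsets STX5 passed in both contrasts with KD_OE, at 0.34 against KD_NC and 0.29 against control, and YIF1A in KD_OE against control at 0.30.

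**Figure D2:**
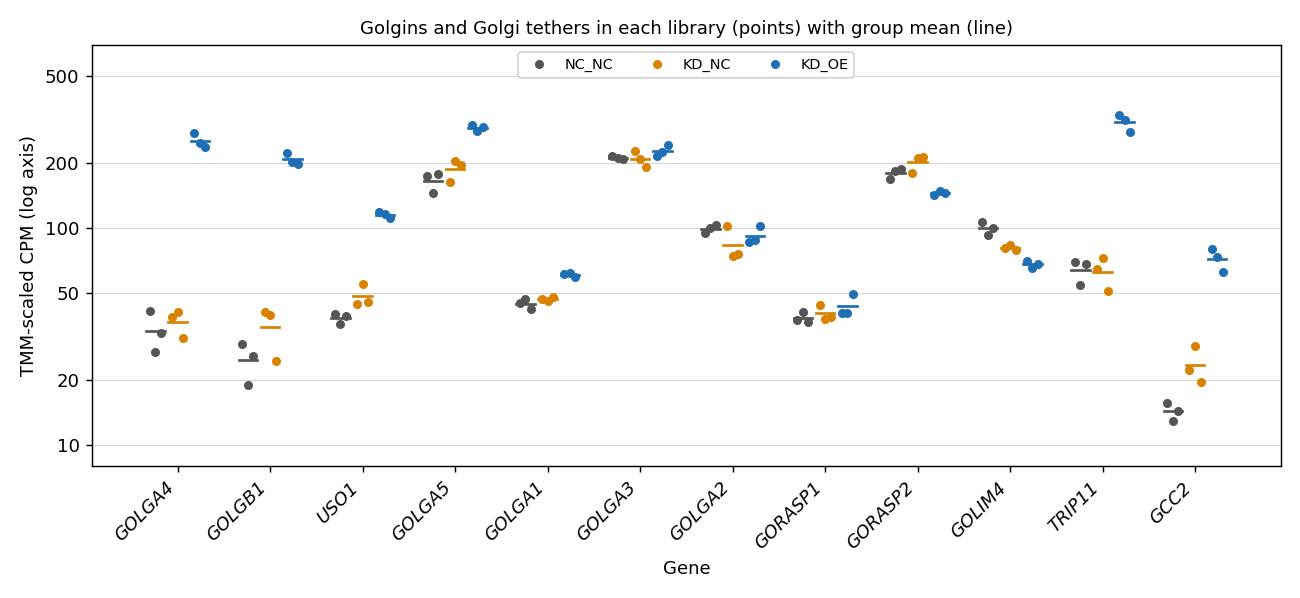
Level of each golgin or tether in each library as points on a log axis of TMM-scaled CPM, with lines for group means and colours for the 3 labelled groups. The KD_OE points of GOLGA4 (236 to 273 CPM), GOLGB1 (197 to 221 CPM) and TRIP11 (277 to 333 CPM) lie apart from the other groups, while those of GOLGA2, GOLGA3 and GORASP1 lie near the other groups.

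A pair of further golgins outside the 58, TRIP11 (GMAP-210, a golgin of the cis-Golgi) and GCC2 (GCC185, of the trans-Golgi network), were read from a wider list of 97 genes of the pathway, 95 of which were tested. TRIP11 measured 70.0, 54.6 and 68.4 CPM in the control libraries, 64.5, 72.9 and 51.5 CPM in those labelled KD_NC and 333, 313 and 277 CPM in those labelled KD_OE. Only the libraries labelled KD_OE were high, 4.88-fold above KD_NC (log2 fold change 2.29 ± 0.124, adjusted p = 5.02e-11). GCC2 measured 15.6, 12.9 and 14.4 CPM in the control libraries, 22.1, 28.7 and 19.4 CPM in those labelled KD_NC and 80.01, 73.3 and 63.0 CPM in those labelled KD_OE. It rose 1.64-fold in KD_NC against control (adjusted p = 0.000664) and a further 3.07-fold in KD_OE against KD_NC (adjusted p = 1.3e-08). Of the 31 further tethers, Rab and SNARE genes, 5 rose and 5 fell in KD_NC against control (16.1% each, against 16.0% and 18.5% of all genes). In KD_OE against KD_NC 11 rose and 6 fell (35.5% and 19.4%, against 23.7% and 25.6%), and in KD_OE against control 10 rose and 9 fell (32.3% and 29%, against 27.9% and 28.4%), RAB1B and BET1L being the genes with the lowest adjusted p among those that fell in KD_OE against KD_NC.

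In the class of the translocon, signal peptidase and TRAP, the summed level was 1646 ± 18.3 CPM in control, 1857 ± 128 CPM in KD_NC and 2021 ± 40.5 CPM in KD_OE (SD, n = 3). In KD_NC against control 5 of the 14 genes rose and 1 fell (35.7% and 7.14%, against 16.0% and 18.5% of all genes), and in KD_OE against KD_NC 5 rose and 3 fell (35.7% and 21.4%, against 23.7% and 25.6%). In KD_OE against control 8 rose and 3 fell (57.1% and 21.4%, against 27.9% and 28.4%). The rises were in the 2 catalytic subunits of signal peptidase (SEC11A and SEC11C), the accessory channel proteins SEC62 and SEC63, and the further subunits SEC61G, SSR1, SPCS2 and SPCS3, each in at least 1 of these contrasts. SEC61A1, the pore of the channel and the gene of this class with the highest level per kilobase (80.4 CPM per kb), measured 387, 396 and 390.1 CPM in the control libraries, 365, 341 and 339 CPM in those labelled KD_NC and 369.7, 403 and 411 CPM in those labelled KD_OE. It passed in no contrast, though with GC offsets it passed in both with KD_OE, at 0.21 against KD_NC and 0.18 against control.

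SEC11A, a catalytic subunit of signal peptidase, measured 131, 134 and 134 CPM in the control libraries, 195, 201 and 235 CPM in those labelled KD_NC and 185, 176 and 185 CPM in those labelled KD_OE. KD_NC libraries lay above control without overlap (0.66 ± 0.0872, adjusted p = 1.23e-05), and the difference between KD_OE and KD_NC did not pass (-0.21 ± 0.0866, adjusted p = 0.0534). SEC11C, the other catalytic subunit, measured 9.25, 11.1 and 8.54 CPM in the control libraries, 15.2, 12.9 and 18.1 CPM in those labelled KD_NC and 29.7, 29.8 and 29.7 CPM in those labelled KD_OE. Its groups did not overlap and stepped up from control to KD_NC (1.59-fold, adjusted p = 0.00113) and again to KD_OE (1.94-fold, adjusted p = 7.78e-06). The ratio of SEC11A to SEC11C per kilobase within a library was 10.9 ± 1.4 in control, 10.8 ± 1.21 in KD_NC and 4.80 ± 0.152 in KD_OE (SD, n = 3). The KD_OE ratios lay below all others, and an exact two-sided permutation test gave p = 0.1 for KD_OE against KD_NC, the lowest that 3 against 3 allows (0.15 adjusted over 9 pairs).

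SEC63, which with SEC62 opens the channel for proteins inserted after their synthesis, measured 78.6, 70.1 and 77.6 CPM in the control libraries, 80.9, 84.4 and 81.1 CPM in those labelled KD_NC and 158, 141 and 137 CPM in those labelled KD_OE. The libraries labelled KD_OE were higher than every other, 1.77-fold above KD_NC (adjusted p = 4e-07). SEC62 itself rose 1.26-fold in KD_NC against control (adjusted p = 0.0109) and 1.33-fold in KD_OE against KD_NC (adjusted p = 0.00122). Both SEC62 calls were lost with GC offsets, at 0.07 and 0.15, and the first also without control replicate 2. SSR4, a TRAP subunit, measured 99.5, 98.3 and 93.5 CPM in the control libraries, 108, 79.1 and 106 CPM in those labelled KD_NC and 60.7, 64.5 and 75.2 CPM in those labelled KD_OE. Its lowest values were those of KD_OE, 1.46-fold below KD_NC without overlap (adjusted p = 0.000568), while its exons overlap those of IDH3G. SPCS1, a signal peptidase subunit, measured 53.2, 56.0 and 58.2 CPM in the control libraries, 59.8, 44.2 and 66.7 CPM in those labelled KD_NC and 38.1, 38.7 and 41.4 CPM in those labelled KD_OE. It was likewise lowest in KD_OE (1.44-fold below KD_NC, adjusted p = 0.00138), but 50.7% of its exon length overlaps NEK4 on the other strand and the kit does not mark strand, so reads of the genes cannot be told apart.

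SEC61B, a small subunit of the channel, measured 53.0, 57.9 and 53.8 CPM in the control libraries, 44.3, 39.0 and 50.3 CPM in those labelled KD_NC and 38.2, 32.1 and 40.5 CPM in those labelled KD_OE. Its KD_OE libraries overlapped those labelled KD_NC and lay 1.48-fold below control (adjusted p = 0.000261), and its fall in KD_NC against control (-0.30 ± 0.111, adjusted p = 0.0414) was lost in 9 of 16 alternatives, among them upper-quartile scaling and the omission of KD_NC replicate 1 or 2, KD_OE replicate 1 or any 1 control library. SEC61G, SSR1, SPCS2 and SPCS3 had log2 fold changes of 0.77, 0.44, 0.27 and -0.24 in KD_NC against control (adjusted p = 0.00129, 0.00415, 0.145 and 0.104) and of -0.26, 0.26, 0.70 and 0.65 in KD_OE against KD_NC (adjusted p = 0.17, 0.0502, 0.000309 and 6.85e-05). SPCS3 against control was 0.41 in KD_OE, but -0.13 with GC offsets, and counts of SPCS2 may be shared with the pseudogene SPCS2P4 (21.0% of its counts). SSR2 fell by 0.27 in KD_OE against KD_NC (adjusted p = 0.0495), a call that held in 6 of 16 alternatives and was lost without KD_NC replicate 3, KD_OE replicate 1 or 2 or any 1 control library. SSR3 did not pass in any contrast.

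**Figure D3:**
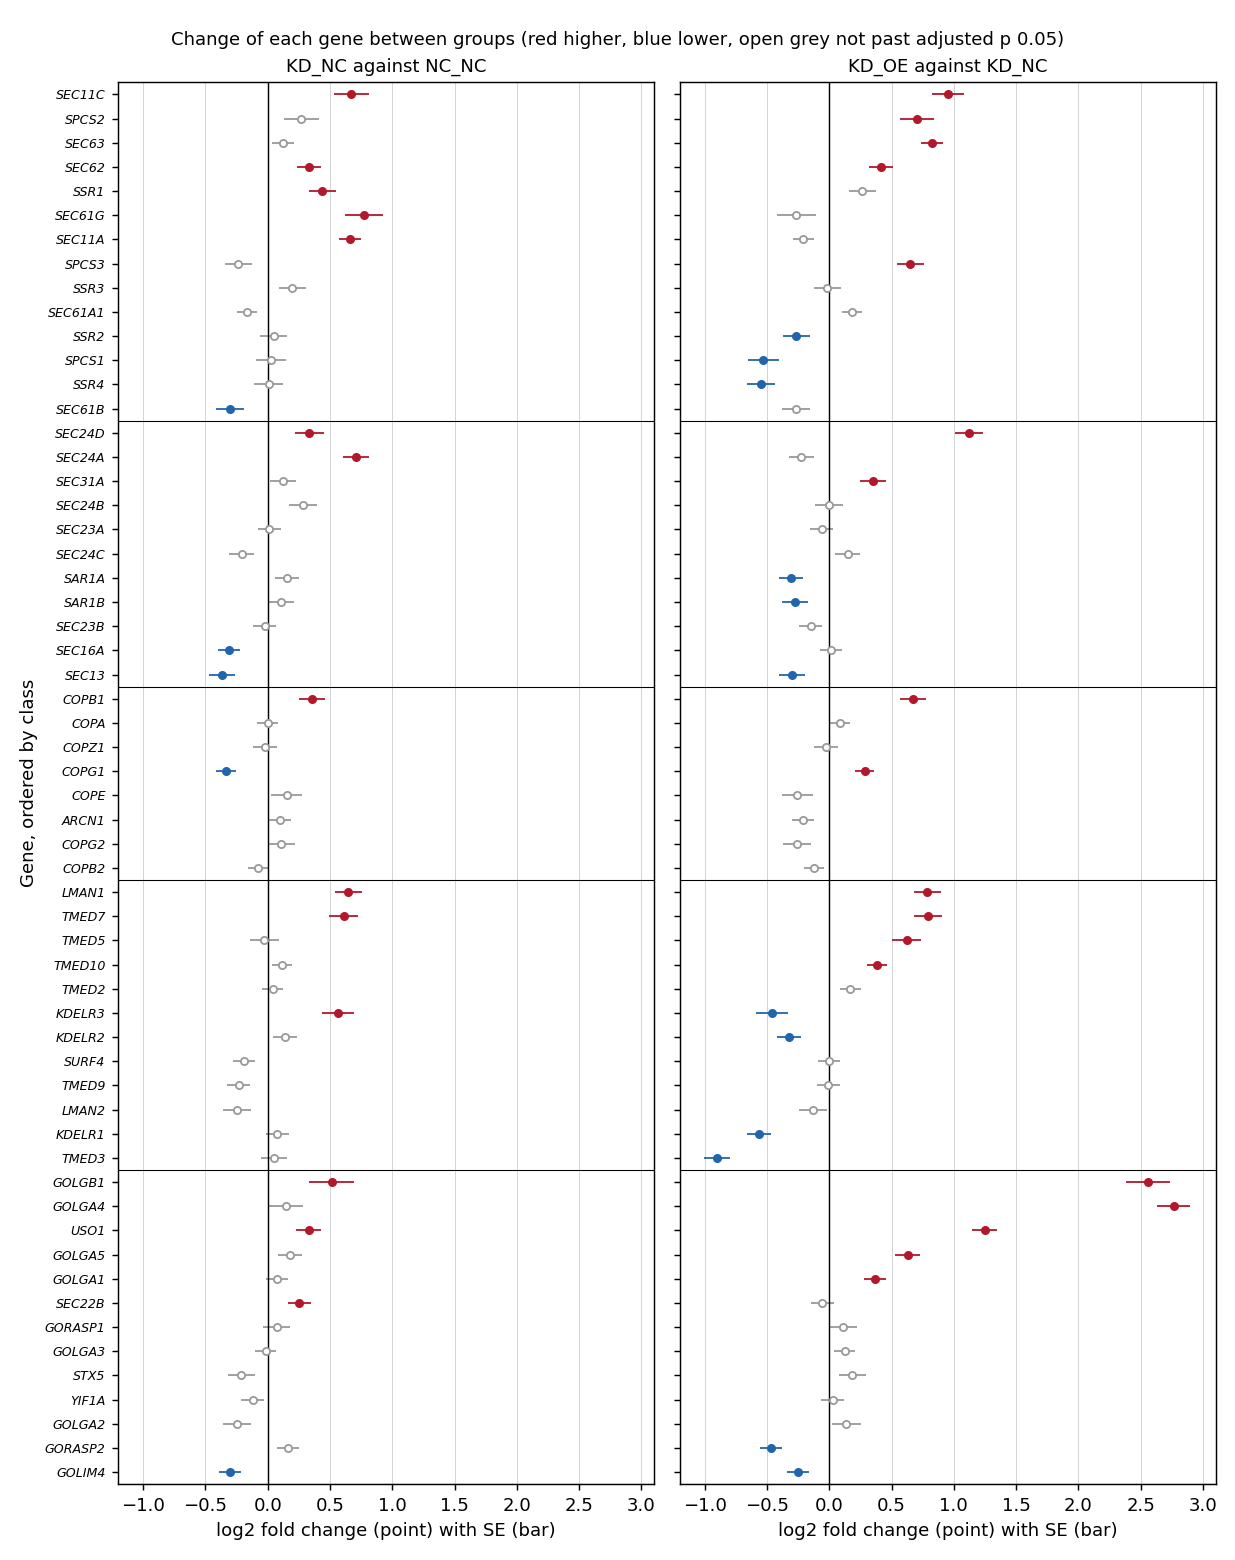
Log2 fold change (point) with standard error (bar) of each of the 58 genes in KD_NC against control and in KD_OE against KD_NC, in 5 blocks by class. GOLGA4 (2.76) and GOLGB1 (2.56) lie furthest to the right in KD_OE against KD_NC, and TMED3 (-0.90) lies furthest to the left.

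The 11 COPII genes, whose products form the coat of vesicles leaving the ER, had a summed level of 1312 ± 10.3, 1266 ± 68.7 and 1258 ± 13.2 CPM in control, KD_NC and KD_OE (SD, n = 3). Within this total the genes of the cargo-binding subunit SEC24 did not move alike. SEC24D rose more than any other coat gene in KD_OE and SEC24A rose in KD_NC, whereas SEC13 and SEC16A, a coat subunit and the scaffold of exit sites, fell. In KD_NC against control 2 of 11 genes rose and 2 fell (18.2% each, near the 16.0% and 18.5% of all genes), in KD_OE against KD_NC 2 rose and 3 fell (18.2% and 27.3%, against 23.7% and 25.6%), and in KD_OE against control 4 rose and 2 fell (36.4% and 18.2%, against 27.9% and 28.4%).

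SEC24D measured 17.8, 18.1 and 19.3 CPM in the control libraries, 19.5, 26.9 and 23.1 CPM in those labelled KD_NC and 51.7, 51.4 and 48.5 CPM in those labelled KD_OE. Every library labelled KD_OE lay above every other, and the rise was 2.18-fold against KD_NC (log2 fold change 1.12 ± 0.114, adjusted p = 1.94e-07) and 2.75-fold against control (adjusted p = 4.66e-09). The smaller rise in KD_NC against control (0.33 ± 0.118, adjusted p = 0.0349) was lost without KD_NC replicate 2 or 3, KD_OE replicate 2 or any 1 control library. SEC24A measured 59.8, 53.9 and 53.2 CPM in the control libraries, 84.6, 102 and 85.8 CPM in those labelled KD_NC and 85.3, 76.9 and 70.5 CPM in those labelled KD_OE. Its KD_NC and KD_OE libraries both lay above control and overlapped each other; the rise was 1.63-fold in KD_NC (adjusted p = 3.36e-05) and 1.40-fold in KD_OE, the latter lost with GC offsets (0.09). SEC24A shares exon sequence with SAR1B on the other strand. SEC24B rose 1.22-fold in KD_OE against control (adjusted p = 0.0392), lost without KD_OE replicate 1 or 2 or any 1 control library and with GC offsets, and SEC24C did not pass. Per kilobase, the ratio of SEC24C to SEC24D within a library was 10.1 ± 0.572 in control, 7.14 ± 1.99 in KD_NC and 3.54 ± 0.218 in KD_OE (SD, n = 3), without overlap between any pair of groups (exact permutation p = 0.1, adjusted 0.15 for KD_OE against KD_NC).

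SEC31A, which with SEC13 builds the outer cage of the coat, measured 104, 104 and 103 CPM in the control libraries, 103, 136 and 98.5 CPM in those labelled KD_NC and 143, 145 and 143 CPM in those labelled KD_OE. It rose 1.27-fold in KD_OE against KD_NC (adjusted p = 0.00897), without overlap. SEC13 measured 101, 110.2 and 108 CPM in the control libraries, 87.8, 67.7 and 91.7 CPM in those labelled KD_NC and 65.1, 66.5 and 69.2 CPM in those labelled KD_OE. It fell 1.29-fold in KD_NC against control (adjusted p = 0.00961; lost without KD_NC replicate 2) and 1.59-fold in KD_OE against control (adjusted p = 2.29e-05), while the fall between KD_NC and KD_OE (-0.30 ± 0.105, adjusted p = 0.0242) came with overlapping libraries and was lost without KD_NC replicate 1 or 3 or KD_OE replicate 1 or 2. The 2 members of the outer cage thus moved in opposite directions in KD_OE against control. SEC16A, the COPII gene with the highest level per kilobase (39.9 CPM per kb), measured 448, 448 and 469.6 CPM in the control libraries, 403, 378 and 321 CPM in those labelled KD_NC and 359.5, 368 and 383 CPM in those labelled KD_OE. It was 1.24-fold lower in KD_NC (adjusted p = 0.0113) and 1.23-fold lower in KD_OE (adjusted p = 0.00835) than control, the first lost with GC offsets and without control replicate 3, the second with upper-quartile scaling.

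SAR1A, the small GTPase that starts coat assembly, measured 120.3, 129 and 123 CPM in the control libraries, 118, 145 and 151 CPM in those labelled KD_NC and 119.6, 113 and 102 CPM in those labelled KD_OE. Its KD_OE libraries overlapped those labelled KD_NC, and the fall was 1.24-fold (adjusted p = 0.0139; lost without KD_OE replicate 3). Its paralog SAR1B fell by 0.27 (adjusted p = 0.0385) in the same comparison, a call lost without KD_NC replicate 2 or 3 or KD_OE replicate 2 or 3. The ratio of SAR1A to SAR1B, 3.60 ± 0.341, 3.72 ± 0.182 and 3.62 ± 0.0158 in control, KD_NC and KD_OE (SD, n = 3), overlapped between all groups. SEC23A and SEC23B did not pass in any contrast. With GC offsets SEC23A passed as lower in all 3, at -0.25 in KD_NC against control, -0.34 in KD_OE against KD_NC and -0.59 in KD_OE against control.

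Of the 8 genes of COPI, the coat of vesicles that return to the ER, 1 rose and 1 fell in KD_NC against control, beside 16.0% and 18.5% of all genes. In KD_OE against KD_NC 2 rose and none fell (25% and 0%, against 23.7% and 25.6%), and in KD_OE against control 1 rose and 1 fell, beside 27.9% and 28.4%. The called genes were the beta and gamma subunits COPB1 and COPG1 and, in KD_OE against control, COPB2. COPB1 measured 158, 132 and 155 CPM in the control libraries, 163, 209 and 199 CPM in those labelled KD_NC and 321, 312 and 276 CPM in those labelled KD_OE. The 3 groups did not overlap and stood in the order control, KD_NC, KD_OE, with a 1.28-fold rise to KD_NC (adjusted p = 0.0114; lost without control replicate 2), a further 1.59-fold rise to KD_OE (adjusted p = 2.48e-05) and 2.04-fold between control and KD_OE. COPG1 measured 181, 186 and 191 CPM in the control libraries, 153, 141 and 149 CPM in those labelled KD_NC and 174, 180.2 and 184 CPM in those labelled KD_OE. It was low in KD_NC alone, 1.26-fold below control (adjusted p = 0.00318) and 1.22-fold below KD_OE (adjusted p = 0.00642), and the latter call was lost without a filter on low counts. COPB2 measured 231, 247 and 231 CPM in the control libraries, 223, 214 and 233 CPM in those labelled KD_NC and 209, 201 and 206 CPM in those labelled KD_OE, and its fall of 0.20 in KD_OE against control (adjusted p = 0.0399) was lost whichever library of either group was left out. With GC offsets COPB2 passed as lower in all 3 contrasts, at -0.34 in KD_NC against control, -0.38 in KD_OE against KD_NC and -0.72 in KD_OE against control. ARCN1, with the highest level per kilobase of the coat (58.8 CPM per kb), measured 237, 253 and 249 CPM in the control libraries, 264, 292 and 236 CPM in those labelled KD_NC and 226, 238 and 217 CPM in those labelled KD_OE and did not pass, nor did COPA, COPE, COPG2 and COPZ1, though COPE passed with GC offsets in KD_NC and in KD_OE against control, at 0.40 and 0.25. COPG1 and COPG2 are alternative gamma subunits of the coat, and the ratio of COPG1 to COPG2 per kilobase was 3.59 ± 0.107 in control, 2.69 ± 0.548 in KD_NC and 3.84 ± 0.242 in KD_OE (SD, n = 3).

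Cargo receptors moved in both directions. LMAN1 (ERGIC-53, a lectin that carries glycoproteins out of the ER) and TMED7 (a p24 family receptor) rose at each step, TMED5 and TMED10, other p24 receptors, rose in KD_OE, and TMED3 with the KDEL receptors, which return ER proteins, fell in KD_OE. In KD_NC against control 3 of 12 genes rose and none fell (25% and 0%, against 16.0% and 18.5% of all genes). In KD_OE against KD_NC 4 rose and 4 fell (33.3% each, against 23.7% and 25.6%), and in KD_OE against control 5 rose and 4 fell (41.7% and 33.3%, against 27.9% and 28.4%). LMAN1 measured 54.9, 45.6 and 56.2 CPM in the control libraries, 82.2, 88.3 and 74.5 CPM in those labelled KD_NC and 155, 145 and 123 CPM in those labelled KD_OE. The groups did not overlap; LMAN1 rose 1.57-fold in KD_NC (adjusted p = 0.000155), a further 1.73-fold in KD_OE (adjusted p = 6.45e-06) and 2.70-fold between control and KD_OE (adjusted p = 2.73e-09). MCFD2, the partner of LMAN1 in coagulation factor export, was outside the 58 and rose 1.41-fold in KD_OE against KD_NC (adjusted p = 5.61e-05). Of the 12 further cargo receptors of the wider list, MCFD2 was the only 1 that rose in this contrast, and 4 fell. These are 8.33% and 33.3%, against 23.7% and 25.6% of all genes. TMED7 measured 111, 93.3 and 114 CPM in the control libraries, 135, 183 and 167 CPM in those labelled KD_NC and 305, 295 and 240.1 CPM in those labelled KD_OE. It followed LMAN1 in order and size, with 1.53-fold in KD_NC (adjusted p = 0.000512) and a further 1.73-fold in KD_OE (adjusted p = 1.48e-05).

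TMED10 measured 631, 608 and 624 CPM in the control libraries, 627, 694 and 697 CPM in those labelled KD_NC and 916, 871 and 843 CPM in those labelled KD_OE. It rose by 0.38 on the log2 scale in KD_OE against KD_NC without overlap (adjusted p = 0.000739), and TMED5 rose 1.54-fold (adjusted p = 0.000179). TMED2, the highest per kilobase of all 58 genes (157 CPM per kb), measured 565, 579.8 and 551 CPM in the control libraries, 526, 600.1 and 619.7 CPM in those labelled KD_NC and 658, 671 and 633 CPM in those labelled KD_OE. Its rise of 0.21 in KD_OE against control (adjusted p = 0.0409) was lost whichever library of either group was left out. TMED3 measured 104, 116 and 117 CPM in the control libraries, 116, 98.5 and 135 CPM in those labelled KD_NC and 61.2, 61.9 and 64.0 CPM in those labelled KD_OE. The KD_OE libraries lay below all others, 1.87-fold below KD_NC (log2 fold change -0.90 ± 0.105, adjusted p = 1.09e-06) and 1.80-fold below control (adjusted p = 1.39e-06). TMED9 and LMAN2 fell by 0.24 and 0.38 in KD_OE against control (adjusted p = 0.0304 and 0.00843), and with GC offsets stood at 0.09 and -0.02. TMED9 was also not called with upper-quartile scaling and without KD_OE replicate 1 or 2 or control replicate 2 or 3, and LMAN2 without KD_OE replicate 1. SURF4, a receptor for soluble cargo, did not pass.

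KDELR1 measured 166, 184 and 186 CPM in the control libraries, 179.5, 172 and 214 CPM in those labelled KD_NC and 120.0, 129 and 133 CPM in those labelled KD_OE. It was lower in KD_OE than in every other library, 1.48-fold below KD_NC (adjusted p = 6.81e-05). KDELR2 fell 1.25-fold in the same comparison (adjusted p = 0.00902). KDELR3, which has the lowest level per kilobase of the KDEL receptors, measured 14.7, 16.0 and 16.0 CPM in the control libraries, 18.3, 25.6 and 24.98 CPM in those labelled KD_NC and 16.6, 17.3 and 16.2 CPM in those labelled KD_OE. It was high in KD_NC alone, 1.48-fold above control (adjusted p = 0.00241) and 1.37-fold above KD_OE (adjusted p = 0.00642). All 3 KDEL receptors were thus lower in KD_OE than in KD_NC, and of the 3 KDELR3 was the one that passed in KD_NC against control. Exons of KDELR3 overlap those of the highly expressed DDX17 by 8 bases.

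**Figure D4:**
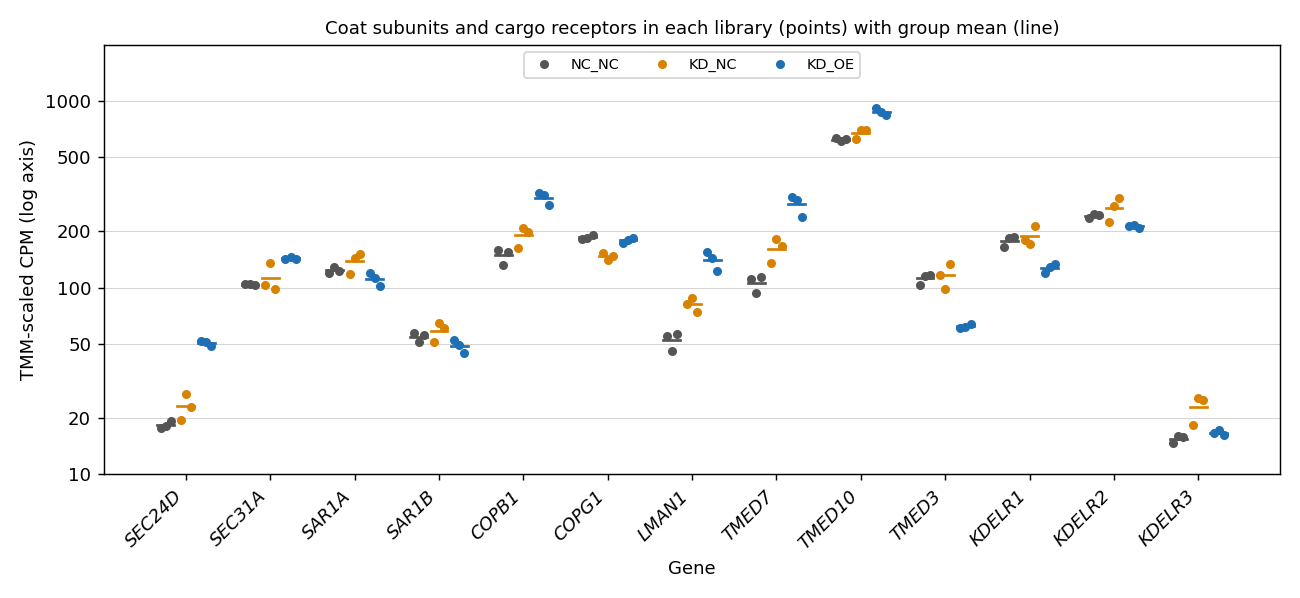
Level of selected coat genes and cargo receptors in each library as points on a log axis of TMM-scaled CPM, with lines for group means and colours for the 3 labelled groups. SEC24D, COPB1, LMAN1 and TMED7 climb from control to KD_OE, TMED3 and KDELR1 are lowest in KD_OE, and KDELR3 is highest in KD_NC.

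Sorted by their calls in the 3 contrasts, the 58 genes fell into a few patterns. The largest held 16 genes that passed in no contrast. The 8 genes SEC62, SEC11C, SEC24D, COPB1, TMED7, LMAN1, GOLGB1 and USO1 rose in all 3 contrasts. A further 9, among them GOLGA4, GOLGA5, SEC63 and TMED10, rose in both contrasts with KD_OE and did not pass in KD_NC against control. TMED3, KDELR1, GORASP2, SPCS1 and SSR4, 5 genes, fell in both contrasts with KD_OE and did not pass in KD_NC against control. SEC13 and GOLIM4 fell in all 3, and the remaining 18 genes had other combinations. The counts describe which calls were made, and differences between the contrasts were not tested. The share of all genes with each pattern was not computed. Since the contrasts share libraries, a call in KD_OE against control is not independent of the other calls. In KD_NC against control, the calls of SEC62, GOLGB1 and USO1 were lost with GC offsets, and that of SEC24D held in 9 of 16 alternatives.

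Promoters were compared for the short sequence TGACGTGG, known as the binding element of the unfolded protein response factors XBP1 and ATF6. Of the 58 genes, 52 had at least 1 promoter of 300 bases (250 before the start and 50 from it) in the RefSeq table of GRCh38.p14, with 66 promoters in all. A gene was counted if any of its promoters matched, and the number of promoters per gene was not matched. Of the 52 genes, 13 (25%) held TGACGTGG on either strand, as did 127 of 10947 tested genes (1.16%) and 5 of 77 genes of the wider list (6.49%). The core ACGTG, which that motif contains, was in promoters of 38 of the 52 genes (73.1%) against 32.0% of the 10947. No member held the ER stress response element (ERSE), its second form ERSE-II or TGATGNAA, present in 0.146%, 0.128% and 2.84% of the 10947. Stretches of 30 bases are shown for 6 of the 13 genes, chosen so that the match can be seen beside genes that rose (COPB1, SEC62, GOLGA5, GOLGA1) and fell (SSR4, KDELR3) in KD_OE against KD_NC, all but COPB1 after their values were known, with the match in capitals and 5′ to 3′ on the strand of the gene.
COPB1: cccacccccttCCACGTCAgccaaggactc
SEC62: ccccctcctcgctCCACGTCAgagggaacc
GOLGA5: ccggcggcgagCCACGTCAcacgcacgcag
GOLGA1: tggccgctcgcTGACGTGGcgaactgggct
KDELR3: ggccgccctggCCACGTCAccgcccggcca
SSR4: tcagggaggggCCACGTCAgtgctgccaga
The stretches lie at chr11:14499841-14499870 (minus strand), chr3:169966777-169966806 (plus), chr14:92794115-92794144 (plus), chr9:124941248-124941277 (minus), chr22:38468039-38468068 (plus) and chrX:153794528-153794557 (plus). Those of COPB1, SEC62, KDELR3 and SSR4 lie partly or wholly in a first exon of a GENCODE transcript. In KD_OE against KD_NC, 4 of the 13 genes with TGACGTGG rose and 2 fell, and of the 39 without it in any promoter read 11 rose and 8 fell, beside 23.7% and 25.6% of all genes in this contrast. The match is a description of the letters, and SEC24D, GOLGA4 and USO1, whose promoters were not in the table, were not read.

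Of these factors, XBP1 measured 80.3, 81.5 and 81.3 CPM in the control libraries, 80.1, 83.8 and 99.3 CPM in those labelled KD_NC and 207, 216 and 211 CPM in those labelled KD_OE. The libraries labelled KD_OE stood above all others, 2.41-fold above KD_NC (log2 fold change 1.27 ± 0.091, adjusted p = 2.05e-09). Counts per gene do not tell forms of a transcript apart, and action of XBP1 or ATF6 on the promoters was not tested. ATF6 is on the wider list, and its own values are not given here. CREB3L2, a transcription factor of the same ER-bound kind as ATF6, rose 1.49-fold in KD_NC (adjusted p = 0.000497) and a further 1.97-fold in KD_OE (adjusted p = 4.19e-07). Of 6 tested transcription factors of secretory genes on the wider list, 5 rose in KD_OE against KD_NC and none fell (83.3% and 0%, against 23.7% and 25.6% of all genes). In KD_NC against control 2 rose and 2 fell (33.3% each, against 16.0% and 18.5%). In KD_OE against control 3 rose and none fell (50% and 0%, against 27.9% and 28.4%).

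The wider list of 97 genes, which holds partners of the 58 in the same steps, had 24 genes higher and 17 lower of 95 tested in KD_NC against control (25.3% and 17.9%, against 16.0% and 18.5% of all genes). There were 33 higher and 21 lower in KD_OE against KD_NC (34.7% and 22.1%, against 23.7% and 25.6%), and 33 higher and 28 lower in KD_OE against control (34.7% and 29.5%, against 27.9% and 28.4%). Among genes of the signal recognition particle and the oligosaccharyltransferase, TRAM1, a membrane protein beside the Sec61 channel, measured 99.6, 90.5 and 102 CPM in the control libraries, 155, 203 and 174 CPM in those labelled KD_NC and 469, 448 and 414 CPM in those labelled KD_OE. It rose 1.82-fold in KD_NC (adjusted p = 2.85e-06) and a further 2.50-fold in KD_OE (adjusted p = 4.21e-09), without overlap between groups. STT3B, a catalytic subunit of the oligosaccharyltransferase, rose 1.45-fold and 1.60-fold in these contrasts (adjusted p = 0.000132 and 3.73e-06). SRPRA, the receptor that brings ribosomes to the channel, measured 245, 262 and 253 CPM in the control libraries, 109.7, 105 and 104 CPM in those labelled KD_NC and 116, 118 and 120.5 CPM in those labelled KD_OE. It fell 2.39-fold in KD_NC against control (adjusted p = 1.38e-09) and did not pass between KD_OE and KD_NC. MIA2 and MIA3 (cTAGE5 and TANGO1), which help load bulky cargo such as procollagen at COPII exit sites, rose 2.83-fold and 1.86-fold in KD_OE against KD_NC (adjusted p = 7.1e-10 and 5.28e-07). ARF3 and ARF4, GTPases of the family that recruits COPI, fell 1.37-fold and 1.44-fold in the same comparison (adjusted p = 0.000102 and 0.000103). ARFGAP3, which switches ARF off on COPI vesicles, rose 1.82-fold in KD_NC against control and 1.33-fold in KD_OE against KD_NC (adjusted p = 1.91e-06 and 0.00126).

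The log2 fold changes of the members ran inversely to their GC content. The median GC content of the 58 was 44.9%, beside 48.1% of the tested genes, and across the 58 genes Spearman's rho between GC content and log2 fold change was -0.52, -0.30 and -0.54 in KD_NC against control, KD_OE against KD_NC and KD_OE against control, beside -0.36, -0.08 and -0.29 over 16802 genes. These are correlations across genes of the same libraries, which are not independent replicates. With offsets for GC content and length, 14 of 19, 28 of 30 and 26 of 35 calls of these genes were made again in the same direction. Those not made again in KD_NC against control were GOLGB1, SEC16A, SEC22B, SEC62 and USO1. They were SEC62 and SSR2 in KD_OE against KD_NC, and LMAN2, SEC24A, SEC24B, SEC61G, SPCS3, SSR1, TMED2, TMED5 and TMED9 in KD_OE against control. The offsets also made calls that were not made without them: 9 genes in KD_NC against control (COPB2, COPE, GORASP1, GORASP2, KDELR1, SEC23A, SPCS3, SSR4 and TMED5), 9 in KD_OE against KD_NC (COPB2, SEC11A, SEC16A, SEC22B, SEC23A, SEC24A, SEC61A1, STX5 and TMED2) and 10 in KD_OE against control (COPE, GORASP1, KDELR2, SAR1A, SAR1B, SEC22B, SEC23A, SEC61A1, STX5 and YIF1A). The shares of calls made again or added with offsets were not computed over all genes. Total calls over all genes went from 5812, 8278 and 9468 to 6163, 9180 and 9908 with offsets, in the same order of contrasts. Whether the 58 genes were more or less stable to the offsets than other genes was therefore not tested.

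**Figure D5:**
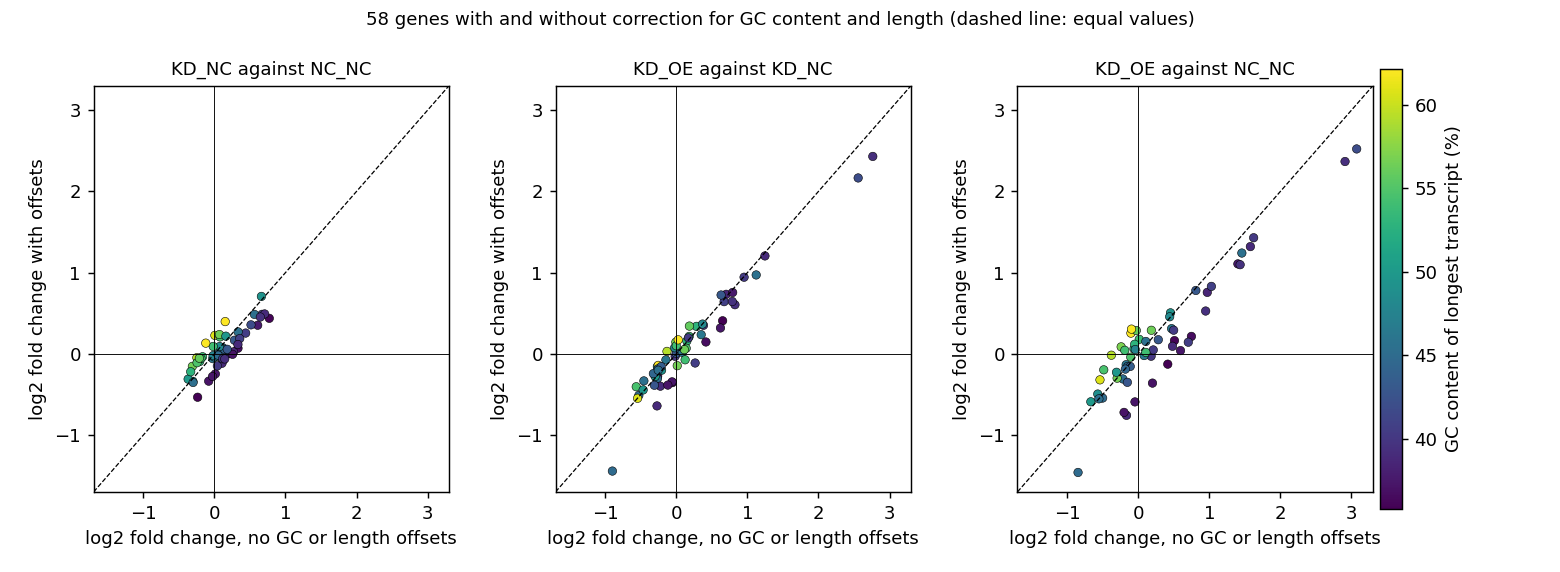
Log2 fold change of each of the 58 genes with GC and length offsets (vertical axis) against that without them (horizontal axis), with 1 panel per contrast and colour for the GC content of the longest transcript. GOLGA4 and GOLGB1 stay at the upper right at 2.43 and 2.17 in KD_OE against KD_NC, while many genes of low GC content lie under the dashed line of equal values.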

How the data were processed

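The authors deposited raw counts of reads per gene, as whole numbers not normalised, for 9 libraries made, per the labels' protocols, with a NEBNext Ultra kit, which does not mark strand. The tools listed without roles, per the submitters' processing notes, are featureCounts 1.5.0-p3, HISAT2 2.0.5 and StringTie 1.3.3b, with build hg19, but the coordinates of 58735 of 58735 deposited genes matched GENCODE v29 on GRCh38, which is used here. How strand and multimapping reads were treated is not given in the sources used.

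The analysis used edgeR 4.0.16 in R 4.3.3: filterByExpr (at least 10 counts, by group), TMM factors, 1 robust quasi-likelihood fit over all 9 libraries, and Benjamini-Hochberg adjustment over 16812 genes, with calls at an adjusted p under 0.05. The steps were also run on simulated counts in which few genes changed and no GC trend was set. That run does not bear on the choice of scaling or on GC content. Alternatives were upper-quartile and RLE factors, DESeq2 1.42.0, no filter, the compared groups alone, a replicate block, offsets for GC content and length, and each library left out. Paralog ratios were counts per kilobase with 0.5 added, tested by exact permutation.

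The members, the wider list and the motifs were chosen with earlier results of these data known. Values in every library were given by rule for AMIGO2 and CAPN2, for the 2 members of each class, contrast and direction with the lowest adjusted p, and for the member with the highest level per kilobase. From the wider list the rule took up to 2 genes per class, contrast and direction. GOLGB1, TMED10 and KDELR3 were added after their values were seen. Promoter sequences came from RefSeq on GRCh38.p14. Library totals were 15158607 to 19737562 counts.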

Additional observations from a re-analysis of the deposited data

How the results depend on the processing

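In KD_NC against control the number of members higher ran from 8 to 19 as each library was left out (14 with all). The number lower ran from 3 to 9 (5 with all), and GC and length offsets gave 8 lower. Calls over all genes ran from 4288 to 6427 as each library was left out (5812 with all). Of the members called with all libraries, 9 of 19, 23 of 30 and 23 of 35 were called under all 16 alternatives in KD_NC against control, KD_OE against KD_NC and KD_OE against control. The same count was not made over all genes. The median over members in KD_OE against control was 0.15 with upper-quartile scaling (0.05 with TMM), where the median of all genes shifted by 0.10. With GC and length offsets the sign turned for SEC22B (-0.0060) and SEC23A (-0.25) in KD_NC against control, for SEC16A (-0.15) in KD_OE against KD_NC, and for SPCS3 (-0.13), SEC22B (-0.36), COPE (0.25), TMED9 (0.086), STX5 (0.29) and YIF1A (0.30) in KD_OE against control; the cause was not tested. Sign changes between values that passed in neither fit are not counted. The SEC11A to SEC11C log2 ratio difference of KD_NC against control turned to 0.0053 with 5 counts added. Without a filter on low counts 48.6% of called members rose in KD_OE against KD_NC (60% with it), beside 44.9% of all called genes (48.1% with it). Replicate numbers did not pair the libraries (0 of 9 same-numbered pairs correlated over 0.1, and 1 of 9 libraries correlated best with its own number). The fit with a replicate block gave 12 higher and 5 lower, 18 and 10, and 21 and 11 members in the 3 contrasts. DESeq2 gave 15 and 5, 18 and 14, and 23 and 12. Of all 16812 genes, the fit with a block called 5376, 7912 and 9149 in the 3 contrasts, and DESeq2 called 5724, 8053 and 9189. The edgeR fit without a block called 5812, 8278 and 9468. The member with the fewest counts, SEC11C, had 2769 counts over the 9 libraries.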

Other observations

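Of the 9 paralog pairs compared within libraries, GORASP1 to GORASP2 stood at a ratio per kilobase of 0.184 ± 0.0139 in control, 0.174 ± 0.0319 in KD_NC and 0.258 ± 0.0313 in KD_OE (SD, n = 3). KDELR2 to KDELR3 stood at 7.53 ± 0.189, 5.66 ± 0.415 and 6.17 ± 0.0855, without overlap between groups, and SEC24A to SEC24B at 0.627 ± 0.0319, 0.850 ± 0.079 and 0.719 ± 0.0257, also without overlap. For each of these pairs an exact two-sided permutation test of KD_OE against KD_NC gave p = 0.1, the smallest that 3 against 3 allows (0.15 adjusted over the 9 pairs). SEC23A to SEC23B overlapped between KD_OE and KD_NC (0.851 ± 0.0542 against 0.800 ± 0.0327).

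RAB6A, a Rab GTPase of the Golgi from the wider list, measured 91.7, 90.5 and 96.6 CPM in the control libraries, 49.5, 63.2 and 66.0 CPM in those labelled KD_NC and 105, 102 and 88.2 CPM in those labelled KD_OE. It was low in KD_NC, 1.56-fold below control (adjusted p = 0.000147) and 1.65-fold below KD_OE (adjusted p = 1.72e-05). SCFD1, which assists SNAREs at the Golgi, rose 1.34-fold in KD_NC against control and 1.66-fold in KD_OE against KD_NC (adjusted p = 0.00293 and 5.14e-06). COG4, a subunit of the tether for transport within the Golgi, fell 1.48-fold in KD_NC against control (adjusted p = 5.8e-05).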
